A study of Mus musculus with 2 samples.

Results

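A list of 44 cell division genes, out of 31054 features counted, was followed in hepatic stellate cells and in the endothelial and Kupffer cells isolated with them. The genes were chosen by symbol. They were divided by role into 10 S-phase genes (the Mcm genes, Pcna, Rrm1, Rrm2 and Tyms), 30 mitotic genes and 4 genes placed in neither list (Pclaf, Hells, Stmn1 and Hmgb2). Both groups were male mice that carried R26-CAG-LSL-RSR-tdTomato-2A-DTR together with p16-CreERT2 and received CCl4, a liver toxin, for 4 weeks, together with tamoxifen and diphtheria toxin. The p16-LRTD mice lacked Alb-DreERT2 and were the control. The p16-Alb-LRTD mice also carried Alb-DreERT2, so that the toxin receptor could be switched on where both the p16 promoter (Cre) and the albumin promoter (Dre) had been active, that is, in hepatocytes with high p16. Each genotype gave 1 library, so that the genotype and the library preparation cannot be told apart. The number of mice in a library and their age are not given in the sources used here.

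A dividing cell first copies its DNA in S phase and then separates the copies in mitosis. Before S phase the Mcm helicase is loaded on DNA, and during it Pcna holds the polymerases on the template while ribonucleotide reductase and thymidylate synthase supply nucleotides. Mitosis is driven by Cdk1 with cyclin A and cyclin B, and exit from it needs the anaphase-promoting complex, which marks the cyclins for destruction. Quiescent stellate cells store vitamin A and rarely divide, and after liver injury they turn into collagen-producing cells that can proliferate.

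The promoters of S-phase and mitotic genes are known to differ in short elements. The E2F element is read by E2F factors in late G1 and S phase, and the cell cycle genes homology region (CHR) is read by the DREAM and MuvB complexes, which repress and then activate mitotic genes. Promoter windows from RefSeq (GRCm38.p6), from 250 bases before to 50 bases after the annotated start, were found for 38 of the 44 genes, in 41 windows. Stmn1, Aurkb, Smc4, Ccna2, Mcm4 and Tpx2 had none in the table. The letters searched on both strands were TTTGAA for the CHR, TTTCCCGC, TTTCGCGC, TTTGCCGC and TTTGGCGC for E2F, and CCAAT, which NF-Y binds. The CHR letters were in 22 of 28 mitotic windows (78.6%), 1 of 10 S-phase windows (10%, Mcm2) and 17.9% of all 32851 windows of this length. The E2F letters were in 4 of 10 S-phase windows (40%), 1 of 28 mitotic windows (3.57%, Cdk1) and 2.26% of all windows. CCAAT did not separate the classes, with 9 of 10 S-phase and 24 of 28 mitotic windows (90% and 85.7%) against 37.4% of all. CHR and CCAAT stood together in 20 of 28 mitotic windows (71.4%) and in 6.95% of all. Matches of different motifs overlapped each other in 1 of the 41 windows, that of Mcm7. A match is a run of letters and was not tested as a binding site.

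The windows of 5 genes are shown 5′ to 3′ on the strand of the gene, with the matched letters of any of the motifs, read on either strand, in capitals. They are those of the mitotic genes with the lowest ratios between the libraries, Ube2c (chr2:164769679-164769978, plus strand) and Ccnb1 (chr13:100786437-100786736, minus strand), of Cdk1 (chr10:69352863-69353162, minus strand), the only mitotic window with both CHR and E2F letters, of Mcm6 (chr1:128359656-128359955, minus strand), the S-phase window with most E2F letters, and of Pcna (chr2:132253131-132253430, minus strand), the gene with the highest ratio.
Ube2c: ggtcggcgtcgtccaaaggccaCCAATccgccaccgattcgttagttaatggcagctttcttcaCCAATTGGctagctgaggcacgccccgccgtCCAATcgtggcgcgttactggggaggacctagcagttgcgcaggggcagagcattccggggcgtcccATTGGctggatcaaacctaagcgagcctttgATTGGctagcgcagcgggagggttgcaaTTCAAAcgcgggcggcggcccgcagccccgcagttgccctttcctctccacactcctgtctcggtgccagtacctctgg
Ccnb1: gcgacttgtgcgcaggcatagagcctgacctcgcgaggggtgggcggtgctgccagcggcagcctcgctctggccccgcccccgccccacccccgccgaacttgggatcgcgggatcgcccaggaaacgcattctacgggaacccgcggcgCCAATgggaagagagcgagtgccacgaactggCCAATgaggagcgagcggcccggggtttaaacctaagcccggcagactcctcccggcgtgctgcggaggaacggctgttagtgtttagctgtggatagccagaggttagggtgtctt
Cdk1: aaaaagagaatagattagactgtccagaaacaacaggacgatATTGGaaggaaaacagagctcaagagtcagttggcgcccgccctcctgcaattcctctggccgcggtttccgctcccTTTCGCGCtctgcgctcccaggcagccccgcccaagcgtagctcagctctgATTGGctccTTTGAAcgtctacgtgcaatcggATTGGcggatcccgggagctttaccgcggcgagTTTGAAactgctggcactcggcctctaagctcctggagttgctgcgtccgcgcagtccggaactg
Mcm6: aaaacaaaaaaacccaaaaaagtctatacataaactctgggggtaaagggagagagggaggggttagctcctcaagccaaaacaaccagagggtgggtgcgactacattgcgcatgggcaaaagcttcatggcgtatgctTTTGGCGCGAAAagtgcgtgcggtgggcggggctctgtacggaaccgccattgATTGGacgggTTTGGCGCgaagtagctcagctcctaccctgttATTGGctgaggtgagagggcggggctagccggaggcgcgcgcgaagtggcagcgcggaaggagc
Pcna: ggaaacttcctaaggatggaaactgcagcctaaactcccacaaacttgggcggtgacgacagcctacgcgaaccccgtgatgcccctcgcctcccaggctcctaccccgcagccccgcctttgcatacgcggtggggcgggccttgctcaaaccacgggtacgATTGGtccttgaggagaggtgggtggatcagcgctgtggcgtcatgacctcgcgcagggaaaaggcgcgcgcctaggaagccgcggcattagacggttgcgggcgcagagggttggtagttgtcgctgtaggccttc
In the Ube2c window the CHR letters began 29 bases before the start, with 6 CCAAT matches upstream. The Ccnb1 window held 2 CCAAT matches, 99 and 67 bases before the start, and no TTTGAA. That was the only form of the CHR searched, so the window may still hold another form. That of Cdk1 held CHR letters 71 and 15 bases before the start and E2F letters 131 bases before it. The Mcm6 window had E2F letters at 110, 106 and 47 bases before the start, the first pair overlapping on opposite strands, and Pcna only 1 CCAAT match, 87 bases before it.

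RNA was counted per cell as unique molecular identifiers (UMIs, 1 for each captured transcript molecule). The p16-LRTD library held 193746596 UMIs in 11149 barcodes and the p16-Alb-LRTD library 162219167 in 8806. After the quality limits 9004 and 7416 cells were left, with medians of 17177 and 18273 UMIs, and 95 barcode sequences occurred in both deposited libraries. Stellate cells were those with at least 15 UMIs of Lrat, Ecm1, Hgf and Reln per 10000 (7852 and 6621 cells), endothelial cells those with at least 8 of Kdr, Stab2 and Ptprb (430 and 283), and Kupffer cells those with at least 8 of Clec4f, Cd5l, Vsig4 and Csf1r (283 and 178). Barcodes within 5 UMIs per 10000 of the stellate threshold, on either side, numbered 105 and 57, and in the same relative margin there were 14 and 4 for endothelial and 35 and 18 for Kupffer cells. Markers not used for gating fitted these names: Des, Colec11, Colec10, Dcn, Pdgfrb, Lhx2 and Rgs5 summed to 26017 and 28651 CPM (UMIs per 1000000 UMIs) in stellate cells and to at most 471 CPM in both other gates. Levels below are CPM of the UMIs summed over the cells of a gate, and ratios are log2 of p16-Alb-LRTD over p16-LRTD, so that a value below 0 means lower in p16-Alb-LRTD. The 95% intervals cover counting error only, since 1 library a genotype gives no replicate check and allows no test.

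In stellate cells p16-Alb-LRTD had lower levels of 43 of the 44 genes, and 29 were lower by 2-fold or more, of which 26 were mitotic. Among all 13783 genes with at least 0.5 CPM on average, which all 44 reached, 2.67% were lower by 2-fold or more, and the median log2 ratio was -0.056. The interval lay below 0 for 42 of the 44 genes, the exceptions being Pcna and Mcm4. With so many UMIs a small shift can leave an interval off 0. The shares of all genes that were lower by any amount or had an interval below 0 were not counted. The mitotic genes summed to 457.4 CPM (453.9 to 460.9) in p16-LRTD and 165.2 (163.0 to 167.5) in p16-Alb-LRTD, for a log2 ratio of -1.47 (-1.49 to -1.45). The median over the 30 genes was lower still, at -2.80. In cells of 10000 to 30000 UMIs the ratio of the sums was closer to 0, at -0.84 (-0.87 to -0.81). The S-phase genes summed to 121.1 CPM (119.3 to 122.9) and 104.9 (103.1 to 106.7), a log2 ratio of -0.21 (-0.24 to -0.17) with a median of -0.30, and -0.081 in cells of 10000 to 30000 UMIs. The 4 genes in neither list lay between, at 208.2 and 102.4 CPM and a log2 ratio of -1.02. At the stricter minimum of 5 CPM on average, 0.943% of 10179 genes were lower and 0.923% higher by 2-fold or more with a median log2 ratio of -0.05, and 29 of the 44 genes reached that minimum, 15 of them lower by 2-fold or more and 0 higher.

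**Figure D1:**
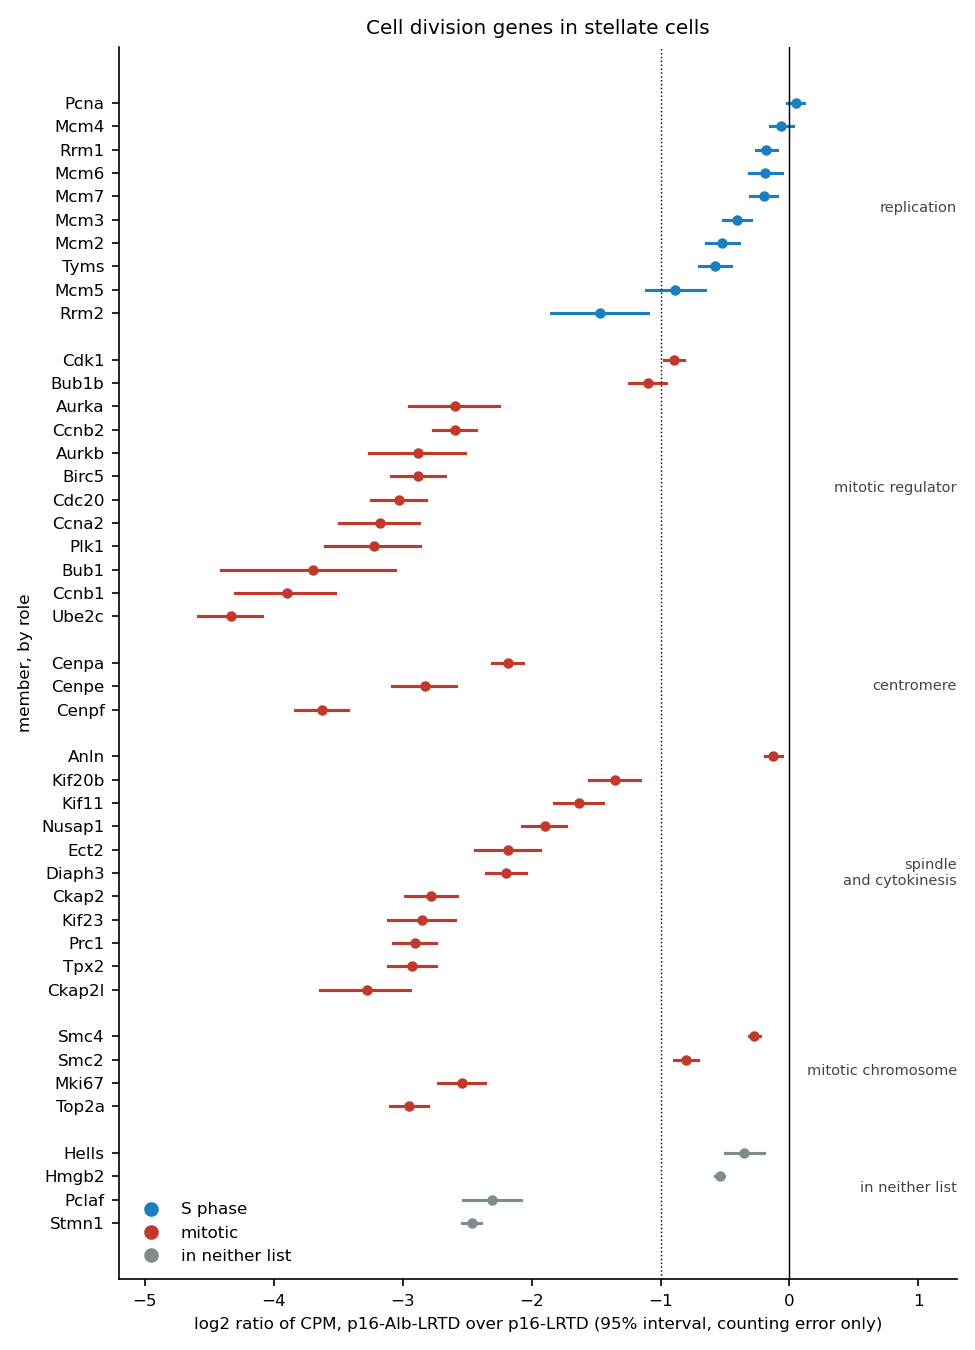
Log2 ratio of each of the 44 genes in stellate cells, p16-Alb-LRTD over p16-LRTD, ordered within role, with 95% counting intervals as bars. Of the S-phase genes 9 lie above -1 (dotted line) and Rrm2 lies at -1.47, whereas 26 of 30 mitotic genes lie below -1, down to Ube2c at -4.34.

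Among the S-phase genes the polymerase clamp Pcna (chromosome 2, 132249162 to 132253314) was at 29.4 CPM (28.5 to 30.3) in p16-LRTD and 30.4 (29.4 to 31.4) in p16-Alb-LRTD, for a log2 ratio of 0.05 (-0.01 to 0.11). Rrm1 (chromosome 7, 102441695 to 102469771), the large subunit of ribonucleotide reductase, was at 20.4 CPM (19.7 to 21.2) and 18.1 (17.3 to 18.8), a log2 ratio of -0.18. Its partner differed. Rrm2 (chromosome 12, 24708241 to 24714146), the small subunit, whose level is known to follow S phase more closely, was at 1.75 and 0.631 CPM, a log2 ratio of -1.47 (-1.85 to -1.10), and it was the only S-phase gene past 2-fold. The 6 subunits of the Mcm helicase had log2 ratios of -0.52 (Mcm2), -0.41 (Mcm3), -0.06 (Mcm4, interval -0.15 to 0.03), -0.88 (Mcm5), -0.19 (Mcm6) and -0.20 (Mcm7). Subunits of 1 complex thus ranged from close to level to nearly 2-fold lower. Tyms, which makes thymidylate, had a log2 ratio of -0.57.

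The regulators of mitosis summed to 134.2 CPM in p16-LRTD and 31.3 in p16-Alb-LRTD, for a log2 ratio of -2.10 (-2.15 to -2.05), and 11 of 12 were lower by 2-fold or more. Cdk1 (chromosome 10, 69335146 to 69352938), the kinase itself, was the exception, at 30.8 CPM (29.9 to 31.7) and 16.6 (15.9 to 17.3) and a log2 ratio of -0.89 (-0.97 to -0.82). Its partners were lower by more, with log2 ratios of -3.18 for cyclin A2 (Ccna2), -2.60 for cyclin B2 (Ccnb2) and -3.90 (-4.30 to -3.52) for cyclin B1 (Ccnb1, chromosome 13, 100778650 to 100786570), which went from 7.16 to 0.480 CPM. Ube2c (chromosome 2, 164769898 to 164778822), the ubiquitin-conjugating enzyme of the anaphase-promoting complex, had the lowest ratio of the 44, with 22.3 CPM (21.5 to 23.1) against 1.10 (0.927 to 1.303) and a log2 ratio of -4.34 (-4.59 to -4.09). Cdc20, which activates that complex, had a log2 ratio of -3.03. The mitotic kinases followed, with log2 ratios of -3.22 for Plk1, -2.59 for Aurka and -2.88 for Aurkb, whose partner in the chromosomal passenger complex, Birc5, was also at -2.88. Bub1 and Bub1b, both of the spindle checkpoint, were not alike, with log2 ratios of -3.69 (-4.41 to -3.06) and -1.10 (-1.25 to -0.96).

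All 3 centromere genes were lower by 2-fold or more, with a summed log2 ratio of -2.69 (-2.79 to -2.60). Cenpa (chromosome 5, 30666777 to 30674830), the histone H3 variant that marks centromeres, was at 24.6 CPM (23.8 to 25.5) in p16-LRTD and 5.41 (5.01 to 5.83) in p16-Alb-LRTD, for a log2 ratio of -2.19. Cenpf (chromosome 1, 189640606 to 189688086), an outer kinetochore protein, was at 20.1 CPM (19.4 to 20.9) and 1.63 (1.41 to 1.87), a log2 ratio of -3.63. The kinetochore motor Cenpe had a log2 ratio of -2.83.

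Of the 11 genes of the spindle and of cytokinesis, 10 were lower by 2-fold or more, and they summed to 135.6 and 46.3 CPM, a log2 ratio of -1.55. Prc1 (chromosome 7, 80294450 to 80316259), which bundles microtubules of the central spindle, was at 20.4 CPM (19.6 to 21.1) and 2.72 (2.44 to 3.02), a log2 ratio of -2.91. Anln (chromosome 9, 22332012 to 22389188), or anillin, a scaffold of the contractile ring, was the exception at 28.1 CPM (27.3 to 29.0) and 25.8 (24.9 to 26.7), a log2 ratio of -0.12 (-0.19 to -0.06). The spindle assembly factor Tpx2 had a log2 ratio of -2.93, the spindle-associated Ckap2, Ckap2l and Nusap1 had -2.78, -3.28 and -1.90, and the kinesins Kif23, Kif11 and Kif20b had -2.85, -1.63 and -1.36. Ect2, which is needed for cytokinesis, was at -2.18 and the formin Diaph3 at -2.20.

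The 4 genes of mitotic chromosomes were divided. Top2a (chromosome 11, 98992943 to 99024189), the topoisomerase that untangles sister DNA, was at 25.8 CPM (24.9 to 26.6) in p16-LRTD and 3.33 (3.02 to 3.67) in p16-Alb-LRTD, for a log2 ratio of -2.95 (-3.10 to -2.80). Mki67 (chromosome 7, 135689784 to 135716361), which codes for the proliferation antigen Ki-67 of the chromosome surface, was at 13.3 CPM (12.7 to 13.9) and 2.29 (2.03 to 2.57), a log2 ratio of -2.54 (-2.73 to -2.36). The condensin subunits were lower by less than 2-fold. Smc2 (chromosome 4, 52439243 to 52488260) was at 19.5 CPM (18.8 to 20.3) and 11.2 (10.6 to 11.8), a log2 ratio of -0.80, and Smc4 (chromosome 3, 69004738 to 69034623) at 75.5 (74.1 to 76.9) and 62.6 (61.2 to 64.0), a log2 ratio of -0.27.

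Outside both lists, Stmn1 (chromosome 4, 134468320 to 134473843), or stathmin, which destabilises microtubules, was at 74.6 CPM (73.2 to 76.0) and 13.5 (12.9 to 14.2), a log2 ratio of -2.46, and Pclaf, a partner of Pcna, had a log2 ratio of -2.31. Hmgb2 (chromosome 8, 57511907 to 57515999), a chromatin protein, was at 120.1 CPM and 82.6 (81.0 to 84.2), a log2 ratio of -0.54, and the helicase Hells at -0.35. In the annotation (GENCODE vM21, GRCm38), 12 of the 44 genes, among them Rrm1, Tpx2, Anln, Top2a, Smc4 and Stmn1, are overlapped by another gene on the same strand. Whether the counts of these genes were affected by the overlaps was not tested.

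The share of cells with these transcripts was then counted after each cell had been thinned at random to 5000 UMIs, which left out 16 and 7 shallower stellate cells. UMIs of at least 3 mitotic genes were found in 311 of 7836 stellate cells of p16-LRTD (3.97%, 3.55 to 4.42) but in 107 of 6614 such cells of p16-Alb-LRTD (1.62%, 1.33 to 1.95), a log2 ratio of -1.29 (-1.63 to -0.97). Without thinning the shares were 24.9% and 23.8%. The difference was larger for at least 5 genes, with 168 cells (2.14%, 1.83 to 2.49) against 15 (0.227%, 0.127 to 0.374), or 9.45-fold fewer (5.57 to 17.3). It did not grow further for at least 10 genes, at 8.51-fold (4.80 to 16.4). For at least 5 genes the unthinned shares were 4.72% and 1.903%. At the low end the libraries were close, with 0 mitotic genes in 51.8% and 52.5% of cells and exactly 2 in 9.32% and 9.59%.

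**Figure D2:**
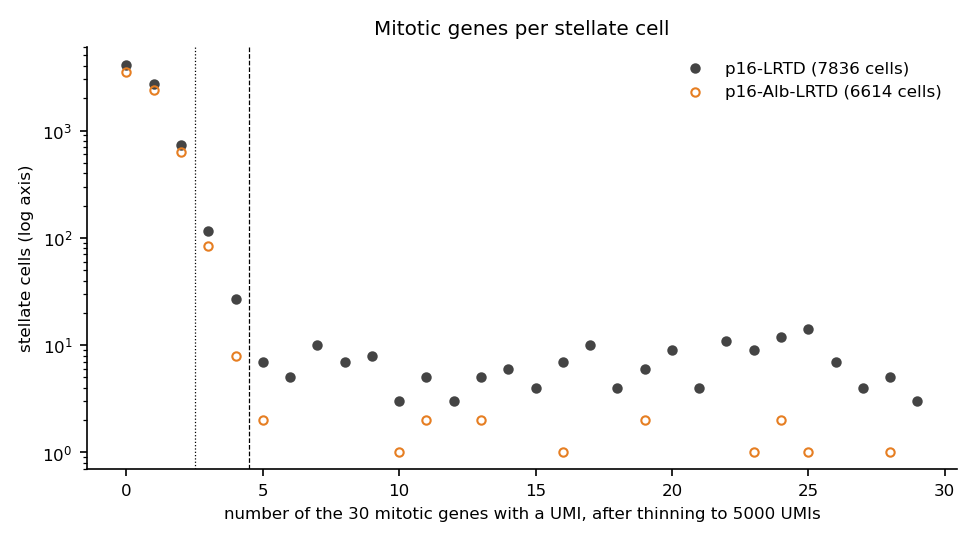
Number of stellate cells (log axis) by the number of the 30 mitotic genes with a UMI after thinning to 5000 UMIs, for p16-LRTD and p16-Alb-LRTD, with the dotted line below 3 genes and the dashed line below 5. The libraries run close up to 2 genes (730 of 7836 and 634 of 6614 cells with exactly 2), and at 5 genes and over 168 cells of p16-LRTD stand against 15 of p16-Alb-LRTD.

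Cells with at least 5 mitotic genes form a range and not a cell type. Near its edge, 143 cells of p16-LRTD but 92 in p16-Alb-LRTD had 3 or 4 genes, and 37 and 2 had 5 to 9, while the median within the range was 18.5 and 16 genes. These cells were also deeper before thinning, with medians of 27506.5 and 29920 UMIs against 16909 and 18136 in the rest. Shares were also counted for single genes. A UMI of Mki67 was found in 151 cells (1.93%, 1.63 to 2.26) against 34 (0.514%, 0.356 to 0.718), one of Top2a in 165 (2.11%) against 29 (0.438%), and one of Ube2c in 146 (1.86%) against 17 (0.257%). Without thinning these shares were 3.88% and 2.16%, 3.81% and 1.39%, and 3.49% and 0.574%. Pcna and the mitotic-list gene Smc4 differed less. Pcna was found in 961 cells (12.3%, 11.5 to 13.0) and 869 (13.1%, 12.3 to 14.0), and Smc4 in 26.1% and 24.9%, with a log2 ratio of -0.07 (-0.16 to 0.03). Unthinned, these were 34.6% and 38.8% for Pcna and 59.7% and 60.2% for Smc4. No cell type here is known to lack these transcripts, so the part of free RNA in the shares was not measured.

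S-phase and mitotic transcripts were next counted in the same thinned cells. UMIs of at least 3 S-phase genes were found in 153 stellate cells of p16-LRTD (1.95%, 1.66 to 2.28) against 72 in p16-Alb-LRTD (1.09%, 0.853 to 1.37). When cells with at least 5 mitotic genes were set aside, 89 (1.14%, 0.913 to 1.40) and 61 (0.922%, 0.706 to 1.18) remained, and the log2 ratio of these shares was -0.30 (-0.79 to 0.19), an interval that includes 0. Before thinning these shares were 14.4% and 17.4%, in the other order. Cells with at least 5 mitotic and under 3 S-phase genes numbered 104 (1.33%, 1.09 to 1.61) and 4 (0.0605%, 0.0165 to 0.155), a log2 ratio of -4.46 (-6.36 to -3.06). Cells with both numbered 64 (0.817%, 0.630 to 1.04) and 11 (0.166%, 0.083 to 0.297). Before thinning these shares were 2.19% and 0.876%, and 2.53% and 1.03% for cells with both. Within the range of at least 5 mitotic genes, 38.1% of the cells (30.7 to 45.9) in p16-LRTD but 73.3% (44.9 to 92.2) in p16-Alb-LRTD also had at least 3 S-phase genes. The intervals overlap narrowly, and the p16-Alb-LRTD share rests on 15 cells. Before thinning the counts were 199 of 371 and 68 of 126 cells, shares close to each other, so that the difference was seen only after thinning. Of all stellate cells, unthinned, 16.9% and 18.4% had at least 3 S-phase genes.

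Where the transcripts lay was described for each gene by the share of its UMIs in cells with at least 5 other mitotic genes. In p16-LRTD this share was 13.3% to 85.1% for S-phase genes, with a median of 21.6%, and 20.8% to 96.6% for mitotic genes, with a median of 90.9%. In p16-Alb-LRTD, with at most 15 such cells, the medians were 4.496% and 46.8%, and 14 of 30 mitotic and 0 of 10 S-phase genes had more than 50% of their UMIs there. In p16-LRTD that held for 27 of 30 mitotic genes, the others being Smc4 (20.8%), Anln (35.4%) and Smc2 (47.8%), and for 1 of 10 S-phase genes, Rrm2 (85.1%). Pcna stood at 14.4%, Cdk1 at 61.9%, Ube2c at 94.2% and Ccnb1 at 96.6%. Genes with more of their UMIs in these cells had lower ratios between the libraries, with a Spearman correlation of -0.958 and a Pearson correlation of -0.931 across the 44 genes. The measures share the p16-LRTD library and the genes share cells, so this is a description.

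**Figure D3:**
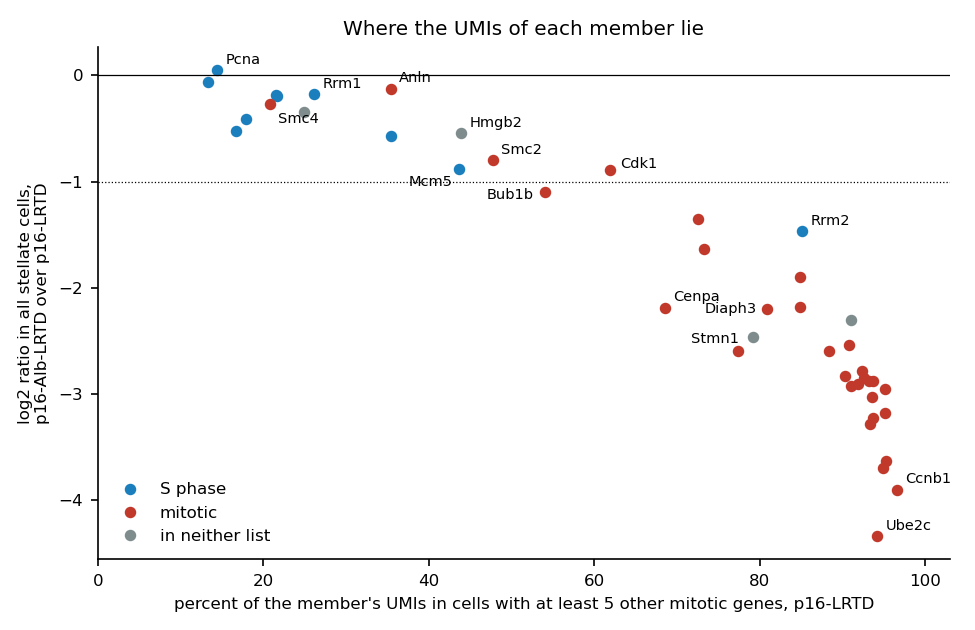
Each of the 44 genes by the percent of its UMIs in p16-LRTD stellate cells that had at least 5 other mitotic genes (horizontal) and by its log2 ratio in all stellate cells, p16-Alb-LRTD over p16-LRTD (vertical). Pcna (14.4%, 0.05) and Smc4 (20.8%, -0.27) lie at one end and Ccnb1 (96.6%, -3.90) and Ube2c (94.2%, -4.34) at the other.

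The ratios were then computed outside and inside that range. Since the range was set by mitotic genes, leaving its cells out limits how far mitotic levels in the rest can differ, so that these values are a description. The median log2 ratio outside the range was 0.05 for the S-phase genes and -0.40 for the mitotic genes. Of the genes with at least 0.5 CPM in these cells, 0 of 9 S-phase and 2 of 23 mitotic genes were lower by 2-fold or more, against 1.8% of all 13694 genes. Summed over the cells with under 5 mitotic genes, the log2 ratios were 0.033 (-0.0026 to 0.068) for S-phase and -0.050 (-0.079 to -0.020) for mitotic genes. The 2 mitotic genes past 2-fold were Cenpf (-2.77, from 0.986 to 0.144 CPM) and Ube2c (-2.33, from 1.33 to 0.265 CPM). Both reached the minimum of 0.5 CPM only through p16-LRTD, so that their count beside the 1.8% is no support for a difference. Another 3 genes under that minimum, Ccnb1 (-3.40), Bub1 (-2.85) and Ckap2l (-1.66), were at 0.406 CPM or less in both libraries. Cdk1 was higher in p16-Alb-LRTD outside the range, at 12.1 and 14.7 CPM and a log2 ratio of 0.27 (0.18 to 0.37), as was Anln, at 18.8 and 24.8 CPM and 0.40 (0.33 to 0.48). The ratios of both genes thus lay on the other side of 0 from those over all stellate cells.

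Within the range the classes parted. Of the S-phase genes 9 of 10 were higher in the cells of p16-Alb-LRTD, 8 with intervals above 0, and the median log2 ratio was 0.83. Of all 10270 genes with at least 5 CPM in these cells, a minimum that the S-phase and mitotic genes all reached, 51.8% were higher and 11.7% had intervals above 0. Pcna was at 129 and 315 CPM there, a log2 ratio of 1.28, and Tyms at 108 and 239 CPM (1.15), while Rrm1 was at -0.18. Of the genes in neither list, Hells was at 46.1 and 129 CPM (1.48) and Pclaf at a log2 ratio of 0.72, while Stmn1 (-0.48) and Hmgb2 (-0.32) were lower. Of the mitotic genes 25 of 30 were lower, 12 with intervals below 0, and the median was -0.30, where 48.2% of all genes were lower and 7.77% had intervals below 0. Ube2c was again the lowest, at 642 and 241 CPM and a log2 ratio of -1.41 (-1.71 to -1.13), followed by Plk1 at -1.13, whereas Top2a was at 0.06 and Diaph3 at 0.46. The values of p16-Alb-LRTD rest on few cells, 15 with at least 5 mitotic genes, and UMIs of 1 cell are not independent, so that these intervals are too narrow. For the same cells the 10 genes of a stellate activation list, such as the collagens, summed to 11989 CPM in p16-LRTD against 9808 in the other stellate cells, and to 7036 against 3765 in p16-Alb-LRTD. The stellate gating genes summed to 5011 against 8618 and to 4153 against 9600.0. Tagln, of the activation and smooth muscle lists, was at 441 CPM in the range against 627 outside it in p16-LRTD but at 1482 against 432 in p16-Alb-LRTD, and Acta2, smooth muscle actin, at 77.7 against 45.2 and at 129 against 12.6 CPM. In p16-Alb-LRTD 3 cells held 52.7% of the Tagln UMIs and 98.2% of the Acta2 UMIs in the range, so that these values rest on few cells. In p16-LRTD 3 of 168 cells held 20.3% of the Tagln UMIs and 54.4% of the Acta2 UMIs, and only 45 cells had an Acta2 UMI. For Pcna, Tyms and Hells in p16-Alb-LRTD 3 cells held 43.1%, 48.1% and 64.3%, and 14, 14 and 10 of the 15 cells had a UMI.

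**Figure D4:**
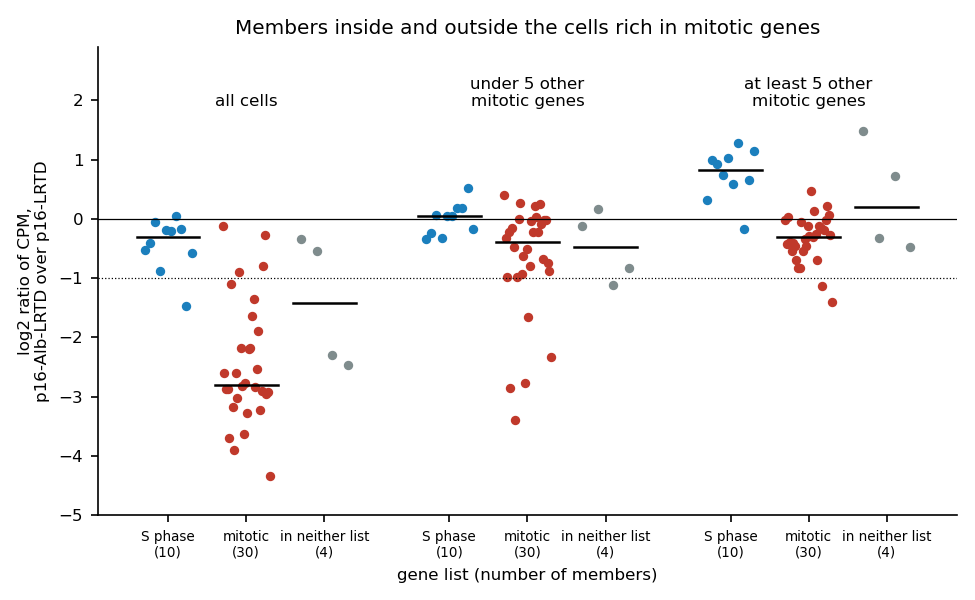
Log2 ratios of the 44 genes, p16-Alb-LRTD over p16-LRTD, in all stellate cells, in those with under 5 and in those with at least 5 other mitotic genes, with a bar at the median of each list. The S-phase medians run from -0.30 over 0.05 to 0.83, and the mitotic medians from -2.80 over -0.40 to -0.30.

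The upper limits on genes and UMIs bear on these counts, since cells with many mitotic genes were deep. They set aside 404 barcodes in p16-LRTD and 274 in p16-Alb-LRTD, which held 42.5% and 29.1% of all mitotic UMIs of the libraries. Of these, 230 and 102 met the stellate gate alone, their mitotic genes summed to 4260 and 827 CPM, and at least 5 mitotic genes were found in 91 (39.6%, 33.2 to 46.2) and 7 (6.86%, 2.80 to 13.6) after thinning. The direction was that of the stellate cells within the limits. It was not that of the 194 and 113 barcodes within the limits that met no gate, whose mitotic genes summed to 270.1 and 473 CPM and of which 6 of 191 (3.14%, 1.16 to 6.71) and 4 of 111 (3.604%, 0.990 to 8.97) had at least 5 mitotic genes after thinning. With the barcodes above the upper limits kept, the mitotic log2 ratio in stellate cells was -1.93 and the S-phase one -0.38. No doublet caller was run, and doublets among the deep barcodes were not tested.

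Other cell-cycle genes outside the 44 were taken from lists of known phase. Of 41 further G2 and mitosis genes, 28 were lower by 2-fold or more in stellate cells of p16-Alb-LRTD and 0 higher, with a median log2 ratio of -2.16. All 41 had at least 0.5 CPM, a minimum at which 2.67% of all genes were lower to that extent, and at 5 CPM 6 of 18 were lower, against 0.943%. The sum of that list had a log2 ratio of only -0.38, as its most abundant genes were Cks2, a Cdk1 subunit, at 215 and 188 CPM (-0.19), the tubulin Tubb4b at 172 and 118 CPM (-0.55) and the chromatin protein Cbx5 at 110 and 98.3 CPM (-0.16). The 36 further S-phase genes had a median of -0.38, and 8 of the 35 with at least 0.5 CPM were lower by 2-fold or more and 0 higher, against 2.67%, but at 5 CPM 0 of 15 were lower, against 0.943%. In that list the nucleotide enzyme Dut was at 52.9 and 44.5 CPM (-0.25), the histone mRNA binder Slbp at 46.8 and 49.0 (0.07) and the fork protein Tipin at 32.5 and 23.7 (-0.45).

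Of 16 G1 cyclins, kinases and E2F-related factors, 8 were higher and 8 lower, and 3 were lower by 2-fold or more. All 16 had at least 0.5 CPM, where 2.67% of all genes were lower to that extent, and of the 11 with at least 5 CPM 0 were lower, against 0.943%. Cyclin D2 (Ccnd2) was at 360 and 367 CPM (0.03), Cdk6 at 150 and 143 (-0.07) and cyclin D3 (Ccnd3) at 104 and 204, a log2 ratio of 0.97. The 3 past 2-fold, picked out after their values were seen, were the transcription factors Foxm1 (3.498 and 1.13 CPM, -1.62), E2f1 (-1.18) and E2f2 (-1.63). Of 14 cell-cycle inhibitors and pocket proteins, 13 of them with at least 5 CPM, 2 were higher by 2-fold or more, against 0.923% of all genes at that minimum, and 0 lower. The most abundant of the list were the antiproliferative gene Btg2 at 307 and 510 CPM (0.73), Trp53, or p53, at 77.7 and 81.3 (0.06) and Btg1 at 57.7 and 84.9 (0.56). The 2 past 2-fold were the Cdk inhibitors Cdkn1a at 15.9 and 41.4 CPM (1.38, 1.31 to 1.45) and Cdkn1c at 16.4 and 33.6 CPM (1.04, 0.96 to 1.11). Cdkn2a was at 6.12 and 4.63 CPM (-0.40), counts per gene that cannot be assigned to p16, as the gene does not code for p16 alone, and Cdkn2c at 57.7 and 45.8 CPM (-0.33). Other genes moved with the cell division genes. The 10 activation genes, all with at least 5 CPM, were all lower, 6 by 2-fold or more against 0.943% of all genes, and summed to 9878 and 3776 CPM (-1.39). The collagens Col3a1 (4085 and 1343 CPM, -1.60), Col1a2 (2318 and 1004 CPM, -1.21) and Col1a1 (1950.2 and 504 CPM, -1.95) were the most abundant of them. The 12 genes of the dissociation stress response, all with at least 5 CPM, were all higher and summed to 6946 and 10516 CPM (0.60). Of them 1 was higher by 2-fold or more (Hspa1b), against 0.923% of all genes at that minimum. They were led by the immediate early genes Jun (1569 and 2253 CPM, 0.52), Fos (1347 and 2261 CPM, 0.75) and Junb (929.6 and 1567 CPM, 0.75). The 8 quiescence genes summed to 11670.4 and 12189 CPM (0.06), with Reln at 0.02, Ecm1 at 0.23 and Rgs5 at -0.26. They include all 4 gating genes (Lrat, Ecm1, Hgf and Reln), by which the cells were chosen. Those 4 made up most of the sum, at 8500 and 9581 CPM (0.17), and all 4 were higher. Of the 8 genes 3 were lower, Rgs5 among them. The sum therefore cannot be read apart from the gate. Markers of other cell types were summed in the stellate gate as well. Endothelial check markers summed to 78.8 and 53.4 CPM, Kupffer check markers to 22.2 and 17.0, monocyte and macrophage markers to 43.6 and 26.2 and hepatocyte markers to 30.4 and 22.1. Single markers went the other way, with the hepatocyte genes Cyp2e1 (1.17, 0.91 to 1.42) and Cps1 (1.301, 0.67 to 1.96) higher and the monocyte gene Ly6c2 at 0 and 0.256 CPM. Cholangiocyte markers summed to 13.2 and 12.9 CPM, with Krt19 (-4.57, -9.92 to -1.96, 1 UMI in p16-Alb-LRTD) and Spp1 (-0.87) lower and Sox9 higher (1.26), while those of T cells, B cells and neutrophils were each under 1 CPM in both libraries. T cell markers were nonetheless higher in p16-Alb-LRTD, at 0.238 and 0.783 CPM (1.72, 1.14 to 2.32), with 3 of 4 past 2-fold, and B cell markers were at 0.372 and 0.599 CPM (0.69, 0.16 to 1.23). Each single T cell or B cell gene was under 0.5 CPM, where no share over all genes was counted. Fibroblast and mesothelial markers summed to 105.5 and 73.5 CPM, and 4 of 5 were lower by 2-fold or more, with a median log2 ratio of -1.32 (Dpt -1.02, Msln -4.02 with an interval of -7.12 to -2.07, Gpm6a -3.57, Upk3b -1.32), whereas Wt1 was at -0.01. Msln, Gpm6a and Upk3b were under 0.5 CPM on average, where no share over all genes was counted. Smooth muscle markers, which include Tagln of the activation list, summed to 771 and 509 CPM, with Myh11 at -1.03. The part of activation, stress and other cell types in the division results was not tested.

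In endothelial cells 26 of the 44 genes were lower by 2-fold or more in p16-Alb-LRTD and 0 higher. Among all 13438 genes with at least 0.5 CPM there, which 43 of the 44 reached, 8.55% were lower to that extent. At the minimum of 5 CPM, 3.65% of 9858 genes were lower and 2% higher by 2-fold or more, and the median log2 ratio was -0.10, while 9 of the 22 cell division genes that reached it were lower, 5 of 10 mitotic and 3 of 9 S-phase genes among them. The cells were few and shallower, with medians of 11781 and 11992 UMIs. Both classes were lower there. The S-phase genes summed to 348.0 CPM (333.5 to 363.1) and 222.4 (208.0 to 237.6), a log2 ratio of -0.65 (-0.76 to -0.53) with a median of -0.81, and 4 of 10 were lower by 2-fold or more. Mitotic genes summed to 340.4 CPM (326.0 to 355.3) and 201.6 (187.9 to 216.0), a log2 ratio of -0.76 (-0.87 to -0.64) with a median of -1.71 or lower, and at least 20 of 30 were lower by 2-fold or more.

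Pcna was again close in both libraries, at 66.1 and 62.8 CPM (-0.08, -0.31 to 0.16). Of the Mcm genes Mcm2 was at 33.96 and 11.3 CPM (-1.59), Mcm7 at 18.2 and 5.77 (-1.66) and Mcm3 at 102.4 and 60.8 (-0.75), and Tyms was at 15.4 and 4.77 (-1.69). Mki67 was at 13.0 and 1.76 CPM (-2.89, -4.25 to -1.78) and Cdk1 at 25.5 and 9.79 CPM (-1.38, -1.93 to -0.87). Top2a and Ube2c rested on 2 UMIs and 1 UMI in p16-Alb-LRTD, at 15.6 and 0.502 CPM (-4.96, -8.02 to -3.07) and at 8.61 and 0.251 CPM (-5.10, -10.43 to -2.56). Anln, 1 of the closest genes in stellate cells, was at 6.82 and 0.502 CPM (-3.76, -6.86 to -1.82), also on 2 UMIs. Of the mitotic genes 5 had 0 UMIs in p16-Alb-LRTD. A floor of 3 UMIs in place of 0 gave log2 ratios of -2.83 for Kif11 (33 UMIs in p16-LRTD) and -2.65 for Prc1 (29). It gave -1.87 for Aurkb (17), -0.96 for Plk1 (9) and -0.11 for Ccnb1 (5). The upper limits of the counting intervals were higher, at -2.45, -2.25, -1.42, -0.35 and 0.75 in this order. For Ccnb1 a ratio above 0 is thus not excluded. The floor values were used for the list median, which is therefore an upper limit as far as the counted UMIs go. Another 4 genes lay above 0, the centromere histone Cenpa at 33.6 and 37.9 CPM (0.17, -0.14 to 0.48), Ccnb2 (0.24), Smc2 (0.06) and Ckap2l at 23.7 and 33.4 CPM (0.49, 0.14 to 0.84).

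After thinning, 59 of 418 endothelial cells of p16-LRTD (14.1%, 10.9 to 17.8) but 15 of 283 in p16-Alb-LRTD (5.30%, 3.00 to 8.59) had at least 3 S-phase genes, intervals that do not overlap, and 42.1% and 33.9% had them before thinning. At least 5 mitotic genes were found in 8 of 418 (1.91%, 0.830 to 3.74) and 1 of 283 (0.353%, 0.00895 to 1.95), with 7.91% and 3.53% before thinning. A Mki67 UMI was found in 6 of 418 cells (1.44%, 0.529 to 3.098) and in 0 of 283, which allows a share of cells with a UMI of up to 1.06% by the floor of 3 counts and 1.295% by the Clopper-Pearson limit, and the upper limit of the log2 ratio of these shares was 0.33. A Top2a UMI was found in 11 of 418 (2.63%, 1.32 to 4.66) and 0 of 283, and there the upper limit of the log2 ratio lay below 0, at -0.76. Before thinning the shares were 3.26% and 0.707% for Mki67 and 3.95% and 0.353% for Top2a. Of the further genes with at least 0.5 CPM, 18 of 36 in S phase and 16 of 35 in G2 and mitosis were lower by 2-fold or more and 0 of either higher, against the 8.55% of all genes. At 5 CPM, against 3.65%, these were 4 of 19 and only 1 of 16, so that the count for G2 and mitosis was near the share over all genes. The G1 cyclins, kinases and E2F-related factors summed to 2215 and 1213 CPM (-0.87, -0.92 to -0.82), with cyclin D1 (Ccnd1) at 1024 and 395 CPM (-1.37). Several lists of other genes also differed in the endothelial gate. The endothelial check markers summed to 5896 and 4848 CPM (-0.28), with Lyve1 (-0.73) and Egfl7 (-0.93) lower and the other 4 between -0.09 and 0.29. The stellate activation list was at 721 and 119 CPM (-2.60), smooth muscle markers at 33.3 and 5.52 (-2.59), fibroblast and mesothelial markers at 19.2 and 2.76 (-2.80) and B cell markers at 11.9 and 0.251 (-5.56, -10.89 to -3.04, 1 UMI in p16-Alb-LRTD). Higher in p16-Alb-LRTD was the dissociation stress list, at 3121 and 5326 CPM (0.77). Cholangiocyte markers, at 15.9 and 66.8 CPM (2.07), were nearly all Spp1 (15.4 and 64.5 CPM), and the defining marker Krt19 was at 0 UMIs in both libraries. Spp1 is also in the monocyte and macrophage list, whose sum was higher at 104 and 159 CPM (0.61) although its most abundant gene in p16-LRTD, Lyz2, was lower, at 80.6 and 44.4 CPM (-0.86). Their part in the result was not tested.

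In Kupffer cells, the resident macrophages of the liver, 17 of the 44 genes were lower by 2-fold or more in p16-Alb-LRTD and 1 higher, Ckap2l. Among all 13251 genes with at least 0.5 CPM, which all 44 reached, 7.43% were lower to that extent, and at 5 CPM 1.87% of 9514 genes were lower and 1.7% higher, with a median log2 ratio of -0.06. Of the 30 cell division genes that reached 5 CPM, 11 were lower and 1 higher, 7 of 16 mitotic and 1 of 10 S-phase genes among those lower. S-phase genes summed to 207.2 CPM (195.8 to 219.1) and 152.7 (141.4 to 164.6), a log2 ratio of -0.44 (-0.58 to -0.30), and mitotic genes to 329.9 (315.4 to 344.8) and 236.7 (222.7 to 251.4), a log2 ratio of -0.48 (-0.59 to -0.37). The medians were -0.38 and -0.62. The sums of the classes were close in this setting, but under several alternatives they lay further apart with the mitotic value lower, for example with the markers of other gates under 2 per 10000 UMIs, at -0.59 for S-phase and -1.08 for mitotic genes.

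Prc1 had the lowest ratio, at 5.38 and 0.447 CPM (-3.59, -6.70 to -1.62) on 32 and 2 UMIs. Other genes past 2-fold included Birc5 at 12.6 and 3.35 (-1.91, -2.82 to -1.10), Rrm2 at 9.08 and 2.91 (-1.64), Stmn1 at 40.2 and 13.4 (-1.58) and Cenpa at 43.7 and 14.98 (-1.55, -1.96 to -1.15). Top2a was at 17.7 and 8.27 CPM (-1.09, -1.68 to -0.54) and Ube2c at 13.5 and 6.71 (-1.01), and Cdk1 was at 18.3 and 9.17. Mki67 was nearly level at 13.6 and 12.7 CPM (-0.10, -0.61 to 0.41), and so were Hmgb2 (-0.03) and Smc4 (0.14). Mki67 and Top2a, both far lower in stellate cells of p16-Alb-LRTD, thus had different ratios in Kupffer cells, with intervals that overlap narrowly. Ckap2l was at 6.90 and 21.0 CPM, a log2 ratio of 1.61 (1.06 to 2.17).

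After thinning, at least 5 mitotic genes were found in 7 of 278 Kupffer cells of p16-LRTD (2.52%, 1.02 to 5.12) but 1 of 177 in p16-Alb-LRTD (0.565%, 0.0143 to 3.11), and a Mki67 UMI in 9 (3.24%, 1.49 to 6.06) and 14 (7.91%, 4.39 to 12.9). Before thinning these shares were 12.0% and 7.30% for at least 5 mitotic genes and 12.0% and 16.9% for Mki67. The intervals overlapped in each case. Of the further genes with at least 0.5 CPM, 12 of 36 in S phase and 12 of 39 in G2 and mitosis were lower by 2-fold or more, against 7.43% of all genes, but at 5 CPM these were 0 of 20 and 1 of 17, against 1.87%. The G1 cyclins, kinases and E2F-related factors summed to 564 and 778 CPM (0.46, 0.40 to 0.53), although 12 of 16 were lower and their median was -0.33. The Kupffer check markers summed to 8259 and 10485 CPM (0.34). The Kupffer cells were deeper in p16-Alb-LRTD, with a median of 25101.5 UMIs against 19514, and other lists differed in this gate too. The stellate activation list was at 493 and 197 CPM (-1.32), monocyte and macrophage markers at 4542 and 3411 (-0.41) and cholangiocyte markers, nearly all Spp1, at 313 and 141 (-1.15), while endothelial check markers were at 449.8 and 664 (0.56), a sum led by Cdh5 (361 and 530 CPM) in a list with a median of 0.03 and 3 of 6 genes lower, and the dissociation stress list at 3662 and 4924 (0.43). Their part in the result was not tested.

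**Figure D5:**
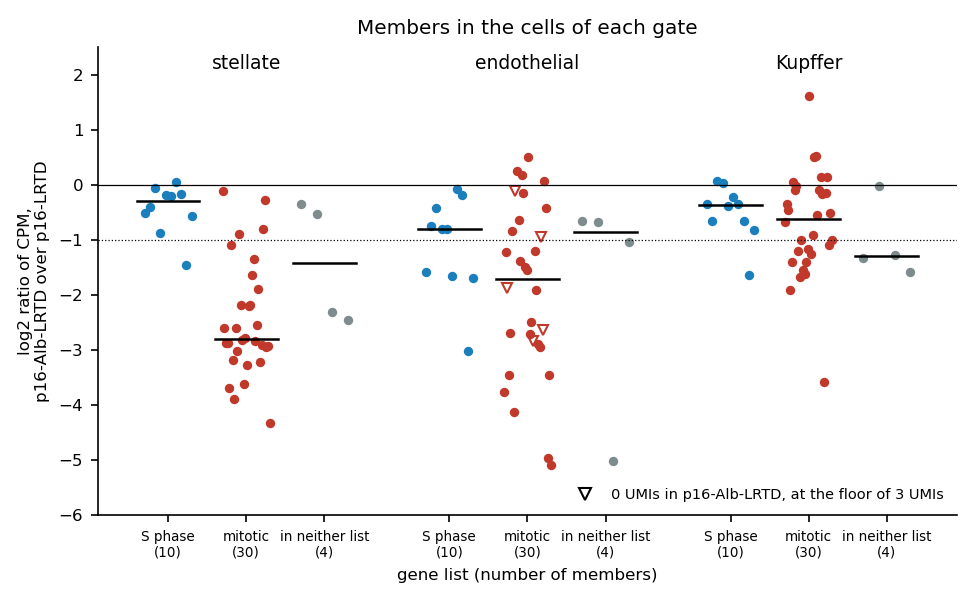
Log2 ratios of the 44 genes, p16-Alb-LRTD over p16-LRTD, in stellate, endothelial and Kupffer cells, with a bar at the median of each list and open triangles for the 5 endothelial genes with 0 UMIs in p16-Alb-LRTD, drawn at the floor of 3 UMIs. The mitotic medians are -2.80, -1.71 (an upper limit) and -0.62, and the S-phase medians -0.30, -0.81 and -0.38.

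The balance of the classes was compared last. Of all UMIs of S-phase and mitotic genes, mitotic genes held 79.1% (78.8 to 79.3) in stellate cells of p16-LRTD and 61.2% (60.6 to 61.7) in those of p16-Alb-LRTD. Endothelial cells had 49.4% (47.9 to 51.0) and 47.5% (45.1 to 49.96), and Kupffer cells 61.4% (59.7 to 63.1) and 60.8% (58.5 to 63.1). The intervals of the libraries overlapped in endothelial and Kupffer cells and lay apart in stellate cells. Whether the ratios differed between the cell types was not tested.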

How the data were processed

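What the authors deposited are raw counts of UMIs for each gene and barcode, in 1 matrix for each of 2 libraries of density-purified stellate cells, aligned to mm10 with Cell Ranger 7.0.1 per the labels (10x Genomics 3′ chemistry). Whether intronic reads were counted, and how near-identical genes were handled, is not given in the sources used here. Counting at the 3′ end, in droplets that also hold free RNA, can add UMIs of abundant genes to any cell.

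Everything else was computed here from the counts in Python 3.11.15 (numpy 2.4.6, scipy 1.17.1, pandas 2.3.3). After the study's methods, barcodes with a mitochondrial share of at most 5%, 2000 to 7000 genes and at most 50000 UMIs were kept. Cells were gated by summed marker UMIs per 10000, and 245 and 221 cells that met more than 1 gate were left out of all gates. Another 194 and 113 met none. No doublet caller was run. UMIs were summed per gate and library, with 95% intervals that were exact Poisson for CPM, conditional on the summed UMIs for ratios, and Clopper-Pearson for shares. A gene counted as lower or higher past 2-fold. The interval and ratio code was tested on simulated data. TMM factors (edgeR 4.0.16) and median-of-ratios factors (DESeq2 1.42.0, R 4.3.3) served only as alternative scalings.

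Gene names and coordinates came from GENCODE vM21, which matched 31011 of 31054 features by identifier. Every one of the 44 genes is named with its stellate ratio. Levels are given for Mki67, Top2a, Cdk1 and Pcna, for the 2 genes of each role with most stellate UMIs and for the lowest and highest ratio, and of the further cell-cycle, activation and stress lists for the 3 genes with most stellate UMIs, with ratios only for quiescence genes. Lists of other cell types are given as sums, with genes named after their values were seen. Genes of lists under 15 genes may be named as well. Further genes with levels, such as Ccnb1, Rrm2 and Ckap2l, were chosen after their values were seen. The 44 genes, the lists and the comparisons were chosen with earlier results of these data known.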

Additional observations from a re-analysis of the deposited data

Results flagged for a closer look

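Ckap2l (chromosome 2, 129268210 to 129297212, minus strand), which codes for a spindle protein, went in opposite directions in the cell types. Its log2 ratio was -3.28 (-3.64 to -2.94) in stellate cells, 0.49 (0.14 to 0.84) in endothelial cells and 1.61 (1.06 to 2.17) in Kupffer cells. The difference between the cell types was not tested, as each genotype had 1 library. The next gene upstream on the same strand is Il1a (129299610 to 129309972), chosen after the values were seen. Il1a was at 239 and 419 CPM in Kupffer cells (0.81, 0.71 to 0.91), 223 and 247 CPM in endothelial cells (0.15, 0.03 to 0.27) and 0.470 and 0.591 CPM in stellate cells. Whether reads of Il1a transcripts were counted as Ckap2l was not tested.

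Mitotic transcripts were also present in barcodes that the upper limits set aside. In the stellate barcodes above those limits the 30 mitotic genes reached a sum of 4260 CPM in p16-LRTD but 827 in p16-Alb-LRTD, against 457.4 and 165.2 CPM in the stellate cells within them.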

How the results depend on the processing

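No paired analysis was possible because there was 1 library a genotype, and no library could be left out. Of 100 alternative values over 8 results, 58 stayed within the limits set for calling them close to the reported value, 41 moved beyond them and 1 reversed. In log2 units, for stellate S-phase, stellate mitotic, endothelial mitotic and Kupffer mitotic genes in this order, the values were -0.38, -1.93, -0.55 and -0.79 without upper limits, and -0.081, -0.84, -0.41 and -0.62 in cells of 10000 to 30000 UMIs. With gates doubled the stellate mitotic value was -1.53 and the Kupffer one -0.74. With cells of several gates kept, the mitotic values were -0.61 in endothelial and -0.81 in Kupffer cells. With other gates' markers under 2 per 10000 UMIs, the S-phase values were -0.80 (endothelial) and -0.59 (Kupffer) and the mitotic ones -0.56 and -1.08. TMM and median-of-ratios scaling each gave -0.16 and -1.42 for stellate S-phase and mitotic genes. Means of per-cell CPM gave -0.096 and -1.09 in stellate, -0.55 (mitotic) in endothelial, and -0.61 (S-phase) and -0.64 (mitotic) in Kupffer cells. Medians over genes were -0.30 and -2.80 in stellate, -0.81 and -1.71 (an upper limit) in endothelial and -0.62 (mitotic) in Kupffer cells. With all 34 genes outside S phase counted as mitotic the stellate value was -1.31, and with Pclaf and Hells added the S-phase value was -0.28. The cause of these shifts was not tested.

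The count of 29 genes past 2-fold was 15 at the 5 CPM minimum, where fewer genes were tested. The log2 ratio of cell shares, -1.29 for at least 3 mitotic genes, was -0.25 for at least 2, -3.24 for at least 5, -1.76 for Mki67 or Top2a, -2.24 at 3000 UMIs and -0.065 without thinning. Alternatives added after seeing the data gave -3.09 for at least 10 genes and, without cells holding 5 or more mitotic genes, a reversed 0.033 for stellate S-phase genes, -0.050 for mitotic genes and a count of 6. Endothelial and Kupffer values rest on at most 430 cells a library in the main setting and on 74 to 615 in the alternatives.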
